A study of Mus musculus with 12 samples.

Results

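A set of 10 genes of the platelet alpha granule was followed in G1ME cells with and without a GATA1 construct: Thbs1, Vwf, Mmrn1, F5, Pf4, Ppbp, Pdgfb, Timp3, Selp and Nbeal2. They are the genes whose symbols name proteins carried in the granule or, for Nbeal2, a protein needed to form it, and their probe sets were found by symbol in the platform annotation. The 10 genes are 10 of 18193 genes with a probe set of a single symbol and are covered by 20 such probe sets of 45101 in all. Their levels were measured on 12 expression arrays in 4 groups of 3. The groups were GATA1 cells at 42 h, vector cells at 42 h, GATA1 cells at 18 h and vector cells at 18 h. All came from G1ME, a mouse line of megakaryocyte-erythroid progenitors that has lost Gata1, so the controls carry this loss too. The GATA1 cells received the MIGR1 retrovirus, which marks its host with green fluorescent protein (GFP), carrying GATA1, and the vector cells received MIGR1 with GFP alone. GFP-positive cells were sorted 42 h or 18 h after transduction, so each group is a single established line rather than primary megakaryocytes, and its GATA1 is driven by a retrovirus. The arrays of a group are lettered A, B and C, and the labels call them biological triplicates.

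Alpha granules are the most abundant secretory granules of platelets. They are built in megakaryocytes from cargo that the cell makes itself or takes up from plasma, and on platelet activation they release adhesive glycoproteins, coagulation factors, chemokines, growth factors and protease inhibitors. Their membrane carries adhesion receptors such as P-selectin to the platelet surface. GATA1, a transcription factor with zinc fingers, is needed for megakaryocytes and erythroid cells to mature. The comparison of GATA1 with vector cells asks how the messenger RNA of these genes stands after GATA1 is returned to cells that lack it.

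Levels are the deposited intensities, which are linear values of probe set brightness with no detection call. The median probe set of an array lay between 8.05 and 8.29, so values under about that height are called near the bottom of the scale. The brightest of a gene's probe sets over the 12 arrays stands for it. Genes entered the tests if this probe set was above the median of 3 or more arrays, and differences are given as log2(intensity + 16), GATA1 minus vector or 42 h minus 18 h, from a limma fit over all 12 arrays and 10759 genes. The p-values were adjusted over these genes by the Benjamini-Hochberg method, the threshold was 0.05, and each difference is given ± its SE. The probe set for Gata1 read 2044 ± 355 in cells labelled GATA1 and 3137 ± 116 in cells labelled vector at 42 h, and 2334 ± 91.0 and 3002 ± 284 at 18 h (SD, n = 3 each). It was thus bright in a line labelled Gata1-negative and was not higher in the cells labelled GATA1 (log2 difference -0.63 ± 0.11, adjusted p = 0.00346 at 42 h, and -0.36 ± 0.11, adjusted p = 0.226 at 18 h). No label says whether this probe set lies outside the deleted part or the construct, so the labels cannot be checked by it, and every direction below rests on them. The array labelled GATA1 42 h replicate A stood apart in RNA quality. The log2 ratio of its 3' to 5' actin probe sets was 0.80, against 0.38 to 0.55 on the other 11 arrays.

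At 42 h, 7 of the 10 genes could be tested. Thbs1, Vwf, Pf4, Ppbp and Pdgfb (5 genes) were higher in GATA1-labelled cells and Mmrn1 and Nbeal2 (2 genes) were lower, while F5, Selp and Timp3 stayed near the bottom of the scale on most arrays and were not tested. Of all genes tested, 20.9% passed at 42 h, 10.3% higher and 10.6% lower. The median difference of the 7 genes was 1.47, beside 0.00 over all genes tested. Vwf was tested only because its GATA1-labelled arrays exceeded the median, so these counts describe the genes and are no support for them. Without replicate A of GATA1 42 h, the array that stood apart, 6 of the 7 passed at 42 h, all but Mmrn1 (-0.81 ± 0.30, adjusted p = 0.103), and the Vwf difference was 5.06. At 18 h only Thbs1 was higher and the other 6 tested genes did not pass, where 1.85% of all genes tested passed, 1.11% higher and 0.744% lower. The median difference at 18 h was 1.03, which is the value of Vwf itself, beside -0.01 over all genes. This median too describes the genes and is no support for them. In sorted cells measured in bulk, fewer cells of a type and less RNA per cell cannot be told apart.

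**Figure D1:**
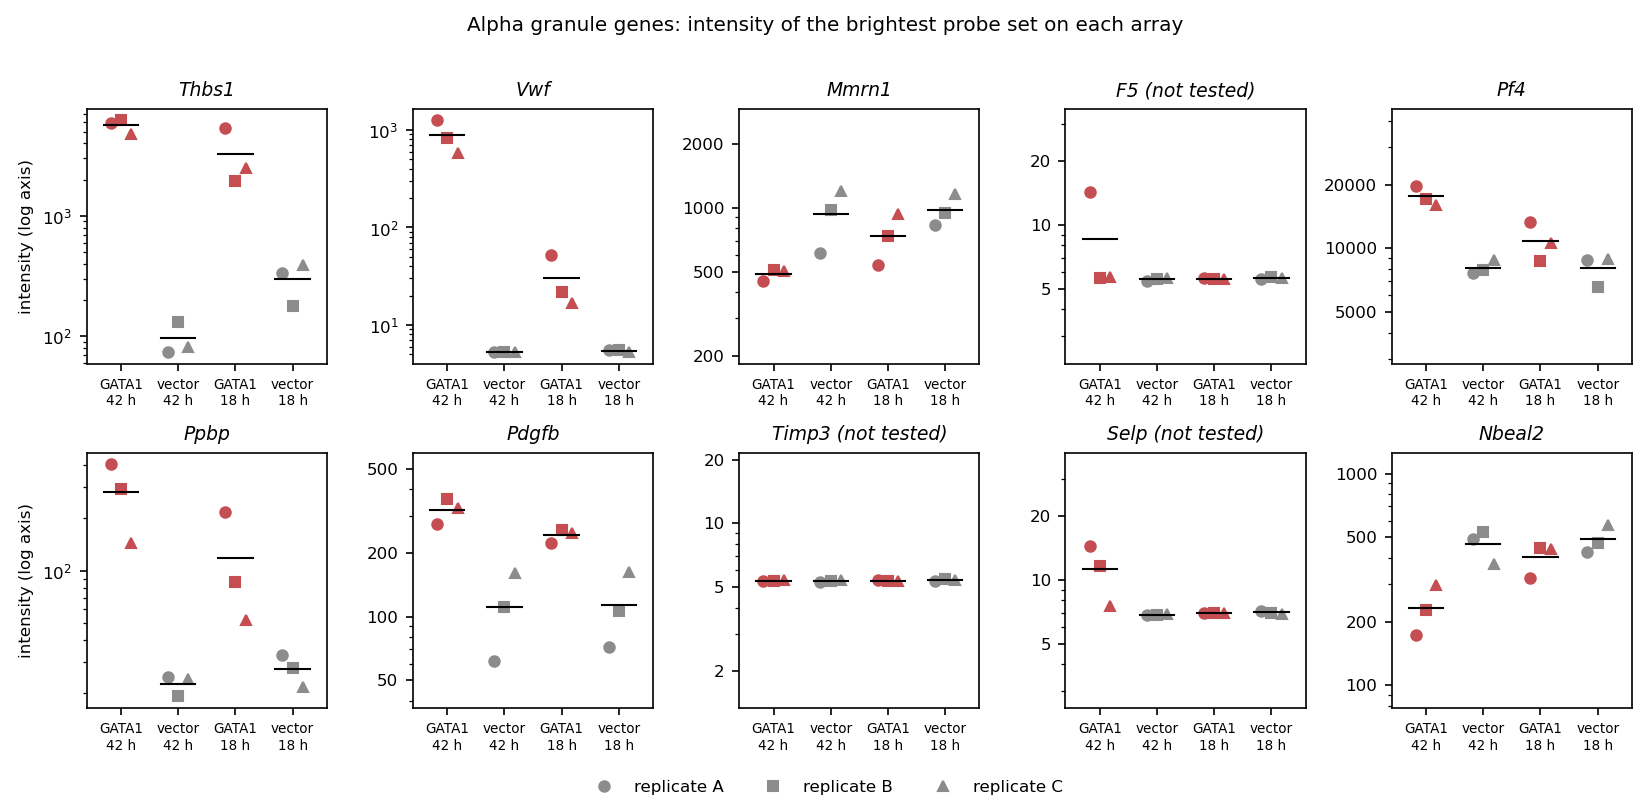
Intensity (log axis) of the brightest probe set of each alpha granule gene on the 12 arrays, by group along the horizontal axis, with red for GATA1, grey for vector, a marker shape for each replicate letter and a line at the group mean. Thbs1, Vwf, Pf4, Ppbp and Pdgfb lie higher in GATA1-labelled than in vector-labelled cells at 42 h with no overlap, Mmrn1 and Nbeal2 lie lower, and Timp3 is flat near 5.

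Thrombospondin 1 (Thbs1) is an adhesive glycoprotein that binds integrins and CD36 and steadies platelet aggregates. It read 5943, 6220.3 and 4789.9 on arrays A, B and C of GATA1-labelled cells at 42 h, against 73.7, 132 and 81.2 on those of vector-labelled cells. At 18 h it read 5363, 1954 and 2517 in GATA1-labelled cells, against 334, 178 and 389.8 in vector-labelled cells. Every GATA1-labelled array lay above every vector-labelled array at both times, and the GATA1-labelled arrays of the 2 times overlapped, replicate A at 18 h lying among those of 42 h. The group means were 5651 ± 759 against 95.7 ± 31.9 at 42 h, a ratio of 59.0, and 3278 ± 1828 against 300.4 ± 109.8 at 18 h, a ratio of 10.9 (SD, n = 3 each). Thbs1 rose by 5.69 ± 0.39 on the log2 scale at 42 h (adjusted p = 9.68e-06) and by 3.31 ± 0.39 at 18 h (adjusted p = 0.00319). The 18 h call was lost when only the 6 arrays compared were fitted (adjusted p = 0.0776) and without the 4 arrays lettered A (2.99, adjusted p = 0.0762). From high to low the groups ran GATA1 42 h, GATA1 18 h, vector 18 h, vector 42 h. The vector-labelled arrays of the 2 times did not overlap, those at 42 h being the lower, but the difference did not pass (-1.47 ± 0.39, adjusted p = 0.401).

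The dimmer probe set of Thbs1 gave much the same picture. It read 2062, 3262 and 2349 in GATA1-labelled cells at 42 h against 26.3, 48.7 and 34.4 in vector-labelled cells, and 2698, 795 and 1218 at 18 h against 116, 79.4 and 168. Again no arrays overlapped between GATA1 and vector at either time. Its differences were 5.61 ± 0.42 at 42 h (adjusted p over probe sets 2.26e-05) and 3.40 ± 0.42 at 18 h (adjusted p over probe sets 0.0053).

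Von Willebrand factor (Vwf) bridges platelets to exposed collagen and carries coagulation factor VIII in plasma, and endothelial cells make it as well as megakaryocytes. It read 1256, 833 and 580.5 in GATA1-labelled cells at 42 h, against 5.26, 5.28 and 5.31 in vector-labelled cells. The 18 h arrays gave 52.6, 21.8 and 16.7 in GATA1-labelled cells, against 5.52, 5.48 and 5.33 in vector-labelled cells. The vector-labelled arrays all lay below the array median, and the GATA1-labelled arrays stood above them at both times with no overlap. Vwf averaged 889.8 ± 341 against 5.28 ± 0.0248 at 42 h and 30.4 ± 19.4 against 5.44 ± 0.0954 at 18 h (SD, n = 3 each). It rose by 5.34 ± 0.30 at 42 h (adjusted p = 2.59e-06). At 18 h the difference was 1.03 ± 0.30 and did not pass (adjusted p = 0.174). Because the vector level was at the bottom of the scale, its size depends on the pseudocount. With 1 in place of 16 it was 7.08 at 42 h and 2.11 at 18 h, where it then passed (adjusted p = 0.0176), and with 64 it was 3.72 and 0.42. Of 12 endothelial marker genes on the array 8, Cdh5, Kdr, Flt1, Cldn5, Emcn, Ptprb, Robo4 and Nos3, lay below the median on all arrays, and the summed intensity of the 12 was 502 to 638 in GATA1-labelled cells and 688.5 to 935 in vector-labelled cells at 42 h. At 18 h the sums overlapped, with 546 to 905 in GATA1-labelled cells and 644 to 932 in vector-labelled cells. Of the 4 tested 1, Tie1, a receptor of endothelial cells, was lower at 42 h (-2.42 ± 0.44, adjusted p = 0.00366), and the lower sum rested on it. Without Tie1 the 42 h sums overlapped, with 477 to 572 in GATA1-labelled cells and 463 to 608 in vector-labelled cells. The differences of Esam (-0.01 ± 0.13, adjusted p = 0.991) and Egfl7 (0.42 ± 0.19, adjusted p = 0.177) did not pass.

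Multimerin 1 (Mmrn1) is a large disulphide-linked glycoprotein that in human platelets binds factor V within the granule. It read 450.0, 506 and 503 in GATA1-labelled cells at 42 h, against 613, 980.3 and 1197 in vector-labelled cells. For 18 h the values were 537, 736 and 938 in GATA1-labelled cells, against 827, 942 and 1167 in vector-labelled cells. The 42 h groups did not overlap, with GATA1-labelled cells the lower, and the 18 h groups did. The means were 487 ± 31.7 against 930.1 ± 295 at 42 h, a ratio of 0.523, and 737 ± 200.4 against 978 ± 173 at 18 h (SD, n = 3 each). Mmrn1 fell by 0.86 ± 0.26 on the log2 scale at 42 h (adjusted p = 0.0409), and the 18 h difference of -0.42 ± 0.26 did not pass (adjusted p = 0.798). Over 22 alternatives the adjusted p-value at 42 h ran from 0.00261, with the replicate letter as a block, to 0.654. The 42 h call lay close to the threshold and was lost under 11 of them. It was lost without replicate B (adjusted p = 0.116) or C (0.121) of the vector 42 h arrays, without replicate A (0.103), B (0.0908) or C (0.0834) of the GATA1 42 h arrays, and without replicate B of the vector 18 h (0.0596) or GATA1 18 h arrays (0.0595). The dimmer probe set of Mmrn1 read 8.06 to 10.02 on all 12 arrays and showed a difference of -0.04 ± 0.04 at 42 h. At about the array median it could not show a lower level, though it is counted among the 11 and gave the adjusted p of 0.654.

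The promoter of Mmrn1 is shown because Mmrn1 is 1 of the 2 genes with a lower level and carries motifs of both kinds searched. RefSeq promoter windows of the GRCm38.p6 assembly, from 250 bases before to 50 bases after a gene's start, were available for 7 of the 10 genes. They were searched on both strands for 4 GATA words, which were AGATAA or AGATAG or TGATAA or TGATAG, and for 4 ETS words, which were CGGAAG or AGGAAG or CGGAAA or AGGAAA, and no match overlapped another. A GATA word stood in 2 of the 7 windows (Mmrn1 and Pf4), beside 29.8% of all 32851 windows. An ETS word stood in 6 of the 7 (all but Ppbp), beside 64.7% of all windows. The Mmrn1 window is chr6:60944067-60944366 on the + strand. Its capitals mark TGATAA on the + strand at -34 from the start, and 5 copies of AGGAAA, on the + strand at -72 and on the - strand at -192, -113, -42 and -19.
Mmrn1: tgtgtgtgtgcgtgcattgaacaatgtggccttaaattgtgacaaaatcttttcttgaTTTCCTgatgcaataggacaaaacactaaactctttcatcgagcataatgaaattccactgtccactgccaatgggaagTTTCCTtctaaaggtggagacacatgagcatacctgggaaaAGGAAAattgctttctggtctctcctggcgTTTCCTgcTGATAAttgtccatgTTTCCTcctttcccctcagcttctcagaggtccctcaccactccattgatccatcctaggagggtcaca

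Coagulation factor V (F5) is the cofactor of the enzyme complex that makes thrombin. It read 14.4, 5.60 and 5.66 in GATA1-labelled cells at 42 h, against 5.45, 5.55 and 5.60 in vector-labelled cells. The values at 18 h were 5.59, 5.53 and 5.57 in GATA1-labelled cells, against 5.56, 5.68 and 5.62 in vector-labelled cells. A single array, GATA1 42 h replicate A, stood above the rest, and F5 was not tested. The dimmer probe set of F5 was also highest on that array, at 6.53, against 5.11 to 5.28 on the other 11. It is the array with the highest actin ratio given above, and the part of RNA quality in this value was not tested. In a fit of all 18193 genes without the filter the 42 h difference was 0.17 ± 0.11 and did not pass (adjusted p = 0.573).

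Platelet factor 4 (Pf4, also called CXCL4) is a chemokine that binds heparin and is among the best known markers of the megakaryocyte lineage. It read 19755, 17148 and 16065 in GATA1-labelled cells at 42 h, against 7662, 7884 and 8788 in vector-labelled cells. Its 18 h values were 13266, 8746 and 10665 in GATA1-labelled cells, against 8869.8, 6603 and 8876 in vector-labelled cells. The 42 h groups did not overlap, with GATA1-labelled cells the higher, whereas replicate B of GATA1 18 h lay within the vector range. Pf4 averaged 17656 ± 1896 against 8111 ± 596 at 42 h, a ratio of 2.18, and 10892 ± 2269 against 8116 ± 1310.4 at 18 h (SD, n = 3 each). It rose by 1.12 ± 0.16 on the log2 scale at 42 h (adjusted p = 0.00106), a call kept under all 21 alternatives. The 18 h difference of 0.42 ± 0.16 did not pass (adjusted p = 0.399).

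Pro-platelet basic protein (Ppbp, or CXCL7) is the precursor of chemokines that attract neutrophils. It read 405, 294 and 144 in GATA1-labelled cells at 42 h, against 24.7, 19.1 and 24.0 in vector-labelled cells. At 18 h the readings were 218, 86.7 and 52.3 in GATA1-labelled cells, against 33.1, 27.8 and 21.6 in vector-labelled cells. GATA1-labelled arrays lay above vector-labelled arrays at both times with no overlap, and the GATA1-labelled arrays were widely spread. The means were 281 ± 131 against 22.6 ± 3.04 at 42 h, a ratio of 12.4, and 119 ± 87.5 against 27.5 ± 5.73 at 18 h (SD, n = 3 each). Ppbp rose by 2.84 ± 0.44 on the log2 scale at 42 h (adjusted p = 0.00158), which was kept under all 21 alternatives. The difference at 18 h was 1.45 ± 0.44 and did not pass (adjusted p = 0.214). Its size was 0.95 without replicate A of GATA1 18 h and 0.90 with a pseudocount of 64.

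Ppbp and Pf4 lie next to each other on chromosome 5 in the RefSeq gene order. Of the 6 other genes nearest to them (Albfm1, Rassf6, Cxcl5, Cxcl3, Cxcl15 and Cxcl1), 2 could be tested and neither passed at 42 h, where 20.9% of all genes tested did. The difference was 0.16 ± 0.12 for Albfm1 (adjusted p = 0.412) and 0.09 ± 0.05 for Cxcl3, another chemokine gene (adjusted p = 0.252). The other 4 lay below the median on every array. The promoters of Pf4 and Ppbp are shown because these neighbours were both higher in GATA1-labelled cells at 42 h, while their windows differ in the words they hold. The Pf4 window is chr5:90772185-90772484 on the + strand, and its capitals mark AGATAA at 37 bases into the transcript on the + strand, AGGAAG at -9 on the - strand and CGGAAA at 14 on the - strand. The Ppbp window is chr5:90768268-90768567 on the + strand and holds none of the 8 words, so it has no capitals.
Pf4: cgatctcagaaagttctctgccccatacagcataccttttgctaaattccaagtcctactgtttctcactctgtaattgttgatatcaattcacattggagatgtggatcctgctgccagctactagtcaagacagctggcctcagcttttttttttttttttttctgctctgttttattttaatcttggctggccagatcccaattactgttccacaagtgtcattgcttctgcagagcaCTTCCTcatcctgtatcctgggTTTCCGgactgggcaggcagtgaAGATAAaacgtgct
Ppbp: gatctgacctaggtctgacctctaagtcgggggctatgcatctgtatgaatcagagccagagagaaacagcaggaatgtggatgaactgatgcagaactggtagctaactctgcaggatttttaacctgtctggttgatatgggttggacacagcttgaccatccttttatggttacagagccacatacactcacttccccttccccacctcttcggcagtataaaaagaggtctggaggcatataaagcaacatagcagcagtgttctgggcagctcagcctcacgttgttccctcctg

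Pdgfb encodes the B chain of platelet-derived growth factor, a mitogen for smooth muscle cells and fibroblasts. It read 274, 358 and 325 in GATA1-labelled cells at 42 h, against 61.5, 111 and 159.9 in vector-labelled cells. At 18 h it read 224, 257 and 248 in GATA1-labelled cells, against 71.5, 106 and 162 in vector-labelled cells. At both times the GATA1-labelled arrays lay above the vector-labelled arrays with no overlap. Pdgfb averaged 319 ± 42.1 against 110.9 ± 49.2 at 42 h, a ratio of 2.87, and 243 ± 17.2 against 113 ± 45.5 at 18 h (SD, n = 3 each). It rose by 1.47 ± 0.31 on the log2 scale at 42 h (adjusted p = 0.00778). The 18 h difference of 1.06 ± 0.31 did not pass (adjusted p = 0.177), but it did with the replicate letter as a block (adjusted p = 0.0337). The dimmer probe set of Pdgfb read 31.5, 66.8 and 107 in GATA1-labelled cells at 42 h against 15.8, 34.4 and 32.5 in vector-labelled cells. Its arrays overlapped, and its difference of 0.88 ± 0.34 did not pass when it stood for the gene (adjusted p = 0.123). At 18 h this probe set read 32.4, 34.7 and 56.1 in GATA1-labelled cells and 14.8, 27.2 and 32.6 in vector-labelled cells, again with overlap.

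Timp3, an inhibitor of metalloproteinases that binds to the extracellular matrix, has 4 probe sets, and all of them read between 3.79 and 5.47 on every array. Its brightest probe set averaged 5.36 ± 0.0473 in GATA1-labelled cells and 5.34 ± 0.0464 in vector-labelled cells at 42 h, and 5.36 ± 0.0214 and 5.41 ± 0.0703 at 18 h (SD, n = 3 each). All groups overlapped, and Timp3 was not tested.

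Selp encodes P-selectin, the receptor that moves from the granule membrane to the platelet surface and binds leukocytes. It read 14.5, 11.6 and 7.55 in GATA1-labelled cells at 42 h, against 6.83, 6.85 and 6.89 in vector-labelled cells. At 18 h it lay between 6.98 and 6.997 in GATA1-labelled cells and between 6.93 and 7.14 in vector-labelled cells. All GATA1-labelled arrays at 42 h were thus above all others, but only 2 exceeded their array's median, so Selp was not tested. The highest of them was again GATA1 42 h replicate A. In the fit of all genes without the filter the 42 h difference was 0.24 ± 0.07 and did not pass (adjusted p = 0.0863). The other 2 probe sets of Selp read between 3.98 and 5.95 on all arrays. Selp and F5 are neighbours on chromosome 1. Of the 4 tested genes nearest to them 1, the thiamine transporter gene Slc19a2, was higher at 42 h, with 533 ± 83.0 in GATA1-labelled and 271 ± 26.2 in vector-labelled cells (SD, n = 3 each; 0.93 ± 0.18, adjusted p = 0.00521). This count stands beside 10.3% of all genes tested higher at 42 h.

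Nbeal2 encodes a BEACH domain protein required to form alpha granules, and its loss causes the gray platelet syndrome in people. It read 172, 227 and 297 in GATA1-labelled cells at 42 h, against 494, 532 and 373 in vector-labelled cells. The 18 h readings were 321, 445 and 443 in GATA1-labelled cells, against 429, 469 and 570.3 in vector-labelled cells. The 42 h groups did not overlap, with GATA1-labelled cells the lower, and the 18 h groups did. Nbeal2 averaged 232 ± 62.3 against 466 ± 82.7 at 42 h, a ratio of 0.498, and 403 ± 71.2 against 489 ± 72.9 at 18 h (SD, n = 3 each). It fell by 0.97 ± 0.21 on the log2 scale at 42 h (adjusted p = 0.00963), and the 18 h difference of -0.28 ± 0.21 did not pass (adjusted p = 0.946). The 42 h call was lost without the 4 arrays lettered A (-0.74, adjusted p = 0.0685). The dimmer probe set of Nbeal2 read 6.62, 95.2 and 109.8 in GATA1-labelled cells at 42 h against 133, 302 and 139 in vector-labelled cells. It was lower on every GATA1-labelled array and lowest on replicate A, and its difference of -1.51 ± 0.61 did not pass when it stood for the gene (adjusted p = 0.136). At 18 h it read 93.2, 147 and 210.0 in GATA1-labelled cells and 179, 143 and 208 in vector-labelled cells, and the groups overlapped. The Nbeal2 promoter is shown beside that of Mmrn1 as the other gene with a lower level. Its window is chr9:110654112-110654411 on the - strand, and its capitals mark AGGAAG at -9 on the gene's own strand, with no GATA word.
Nbeal2: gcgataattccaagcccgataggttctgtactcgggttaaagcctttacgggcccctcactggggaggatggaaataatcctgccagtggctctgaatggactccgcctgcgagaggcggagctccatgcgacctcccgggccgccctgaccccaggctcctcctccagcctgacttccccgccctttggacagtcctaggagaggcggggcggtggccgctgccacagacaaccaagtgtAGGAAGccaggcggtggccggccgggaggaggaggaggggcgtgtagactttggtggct

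**Figure D2:**
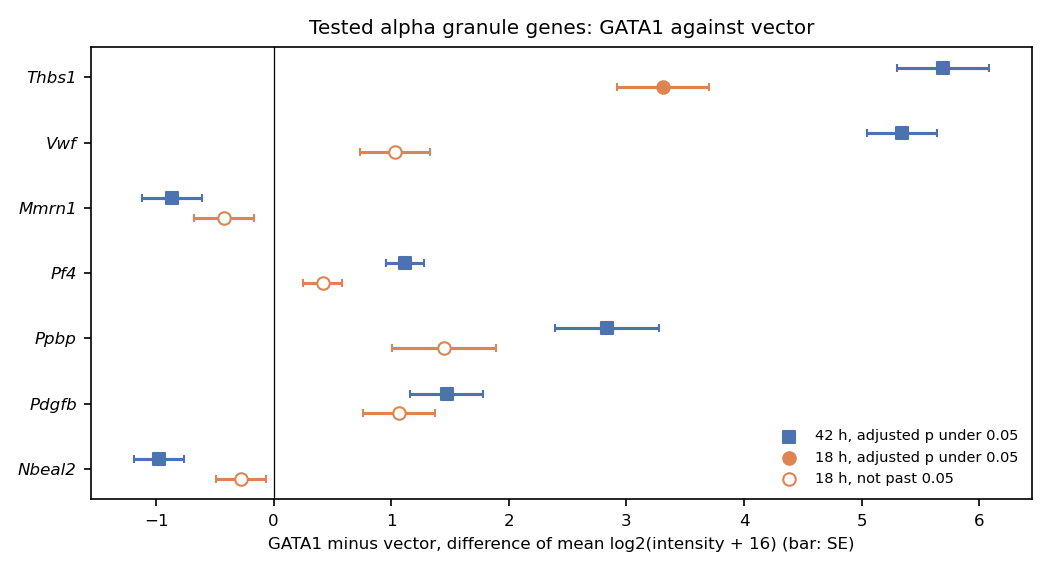
Difference of mean log2(intensity + 16), GATA1 minus vector (horizontal axis), for the 7 tested alpha granule genes at 42 h (squares) and 18 h (circles), with bars of ± SE and filled markers where the adjusted p is under 0.05. All 7 squares are filled, 5 to the right of 0 and Mmrn1 and Nbeal2 to its left, while Thbs1 alone is filled at 18 h.

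Counted by arrays that do not overlap, 5 of the 7 tested genes were higher and 2 lower in GATA1-labelled cells at 42 h, where 16.8% of all genes tested were higher and 16.6% lower in this way. At 18 h, Thbs1, Vwf, Ppbp and Pdgfb were higher without overlap, 4 of 7, where 5.47% of all genes were, and none was lower, where 9.93% were. Vwf is in the counts of both times but was tested only through its GATA1-labelled arrays. The counts thus describe the genes and are no support for them. With the replicate letter as a block, 2 members passed at 18 h, Thbs1 and Pdgfb, and 358 genes passed in place of 199.

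The difference between the GATA1 effects at 42 h and at 18 h, an interaction in the same fit, was past the threshold for 2 of the 7 genes, where 4.66% of all genes passed, 2.29% with a more positive and 2.37% with a more negative effect at 42 h. For Vwf the effect was greater at 42 h by 4.31 ± 0.42 on the log2 scale (adjusted p = 4.81e-04), and this was kept under all 20 alternatives. Its size ran from 3.30 to 4.96 over them. Vwf was tested only through its GATA1-labelled arrays, so these values describe it and are no support. For Thbs1 it was greater by 2.38 ± 0.56 (adjusted p = 0.0433), close to the threshold. The Thbs1 call was lost under 15 of 21 alternatives, with adjusted p-values from 0.0112 to 0.108. Among them, leaving out any single array lost it, with adjusted p-values of 0.0521 to 0.108, except replicate B of vector 18 h and replicate A of GATA1 18 h. This value is the change of Thbs1 with time in GATA1-labelled cells (0.91) minus that in vector-labelled cells (-1.47), neither of which passed alone. The remaining interactions did not pass and were 1.39 ± 0.63 for Ppbp (adjusted p = 0.324), 0.70 ± 0.23 for Pf4 (0.156), 0.41 ± 0.43 for Pdgfb (0.792), -0.44 ± 0.36 for Mmrn1 (0.691) and -0.70 ± 0.30 for Nbeal2 (0.289). The median over the 7 was 0.70, beside 0.01 over all genes. The interaction, the time comparison and the 42 h comparison share arrays, so their values are not independent.

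Within GATA1-labelled cells, Vwf and Pf4 were higher and Nbeal2 lower at 42 h than at 18 h, where 6.72% of all genes tested were higher and 7.91% lower. Vwf rose by 4.30 ± 0.30 (adjusted p = 2.16e-05), with 889.8 at 42 h against 30.4 at 18 h. Pf4 rose by 0.71 ± 0.16 (adjusted p = 0.0182), and Nbeal2 fell by 0.77 ± 0.21 (adjusted p = 0.0385). The Vwf call was kept under all 21 alternatives, with differences of 3.30 to 4.93, but Vwf was tested only through these GATA1-labelled arrays. That of Pf4 was lost with only the arrays compared (adjusted p = 0.0604), without replicate B (0.0590) or C (0.0570) of GATA1 18 h and without replicate A (0.0564) or B (0.0520) of GATA1 42 h. That of Nbeal2 was lost under 10 of 22 alternatives, among them without replicate B (0.119) or C (0.123) of GATA1 18 h, replicate A (0.104) or B (0.1005) of GATA1 42 h, replicate B of vector 18 h (0.0564) and replicate A of vector 42 h (0.0521). The differences of Ppbp (1.22 ± 0.44, adjusted p = 0.105), Thbs1 (0.91 ± 0.39, adjusted p = 0.170), Pdgfb (0.37 ± 0.31, adjusted p = 0.521) and Mmrn1 (-0.55 ± 0.26, adjusted p = 0.206) did not pass. Replicate A of GATA1 18 h was the highest of its group for Thbs1 and Ppbp. Without it both passed, at 1.33 (adjusted p = 0.0349) and 1.72 (adjusted p = 0.0178), and Ppbp also passed without replicate C of GATA1 42 h (1.62, adjusted p = 0.0465).

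Within vector-labelled cells none of the 7 tested genes passed between 42 h and 18 h by limma, where 0.0186% of all genes did. The unadjusted p-value was under 0.05 for Thbs1 (0.00428) and above it for the other 6. The Thbs1 and Vwf arrays did not overlap between the times, 42 h being lower, where 7.18% of all genes were lower and 3.10% higher in this way, but for Vwf the means were 5.28 and 5.44, both at the bottom of the scale. Pf4 averaged 8111 at 42 h and 8116 at 18 h in vector-labelled cells, a difference of 0.01 ± 0.16.

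The replicate letters ran alongside the levels of several genes. Ppbp and Vwf read highest on array A and lowest on array C in GATA1-labelled cells at both times, with a ratio of highest to lowest of 2.82 at 42 h and 4.17 at 18 h for Ppbp and of 2.16 and 3.16 for Vwf. Mmrn1 and Pdgfb read lowest on array A in all 4 groups. Within Pdgfb the spread lay in the vector-labelled cells, where the highest array was 2.60 times the lowest at 42 h and 2.26 times at 18 h, against 1.30 and 1.15 in GATA1-labelled cells. What the letters share is not stated beyond the replicate, and no cause of these differences was tested.

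**Figure D3:**
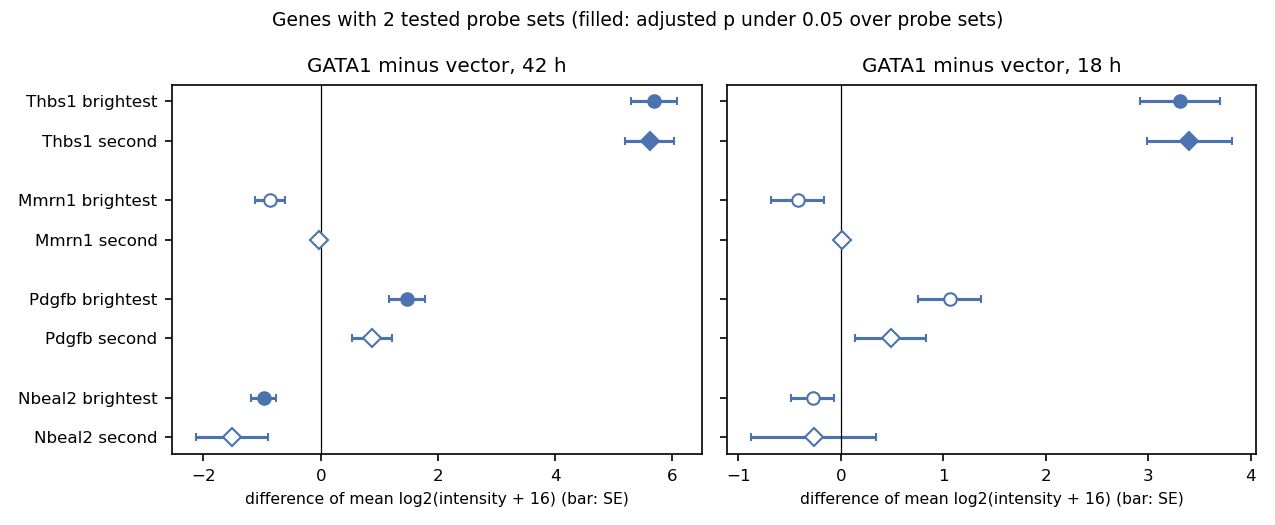
Difference of mean log2(intensity + 16), GATA1 minus vector (horizontal axis), with bars of ± SE, for the brightest (circle) and the dimmer (diamond) probe set of Thbs1, Mmrn1, Pdgfb and Nbeal2 at 42 h (left) and 18 h (right), filled where the adjusted p over probe sets is under 0.05. The probe sets of Thbs1 nearly coincide at both times, those of Pdgfb and Nbeal2 lie on the same side of 0 at 42 h, and the dimmer Mmrn1 probe set, near the array median, lies at 0.

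A dimmer probe set exists for 4 of the tested genes, though that of Mmrn1 lies too near the array median to serve as a check. At 42 h the brightest and the dimmer probe set differed between GATA1 and vector by 5.69 and 5.61 for Thbs1, by 1.47 and 0.88 for Pdgfb, by -0.97 and -1.51 for Nbeal2 and by -0.86 and -0.04 for Mmrn1. With the dimmer probe set standing for each gene that has one, 4 members passed at 42 h, all higher. Over all genes the calls also fell in that fit, to 1560 (804 higher and 756 lower) from 2251. Pdgfb and Nbeal2 did not pass, and neither did Mmrn1. Fitted over all probe sets in place of genes, Mmrn1 did not pass (adjusted p = 0.0508). Vwf, Pf4 and Ppbp have a single probe set each, so no such check exists for them.

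Genes with names of clone, RIKEN or predicted gene form were left out when likeness was ranked. By Pearson correlation of log2 values over the 12 arrays, the pattern of Vwf was most like those of Fam241a (0.995), Sardh (0.993) and Apol11b (0.988). That of Thbs1 was most like Slain2 (0.986), Tmem184a (0.980) and Mtmr12 (0.978), that of Pf4 most like Nipa1 (0.980), Yod1 (0.977) and Tpm4 (0.974), and that of Ppbp most like Asap2 (0.985), Lgalsl (0.975) and Cracd (0.971). Pdgfb was most like Slc14a1 (0.964), Dusp3 (0.956) and Sla2 (0.955). Of the lower genes, Mmrn1 was most like Cd79b (0.963), Lyz2 (0.958) and Id1 (0.956), and Nbeal2 most like Pbxip1 (0.971), Jak3 (0.961) and Il17ra (0.960). No member was among the 3 genes most like another. These coefficients are descriptions over 12 arrays that share 4 groups.

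Other cargo of the alpha granule moved in both directions. Of 29 such genes 27 have a probe set of their own and 9 were tested, of which 5 were higher and 2 lower in GATA1-labelled cells at 42 h, with a median of 0.87 beside 0.00 over all genes. The shares over all genes tested were 10.3% higher and 10.6% lower at 42 h, and 1.11% and 0.744% at 18 h. The matricellular protein gene Sparc read 662 ± 136 against 38.4 ± 14.4 at 42 h (3.66 ± 0.25, adjusted p = 8.68e-06). The vascular growth factor gene Vegfa read 156 ± 11.5 against 17.0 ± 8.21 (2.41 ± 0.21, adjusted p = 4.44e-05), and Pros1, for the anticoagulant protein S, read 345 ± 56.0 against 83.1 ± 31.5 (1.91 ± 0.22, adjusted p = 2.46e-04). The growth factor gene Angpt1 was lower, with 671 ± 67.7 against 1070.3 ± 109.9 (-0.66 ± 0.12, adjusted p = 0.00316), as was Srgn, for the proteoglycan serglycin that retains granule cargo, with 14186 ± 1275 against 19272 ± 513 (-0.45 ± 0.08, adjusted p = 0.00279; SD, n = 3 each throughout). At 18 h Sparc alone of the 9 passed (1.42 ± 0.25, adjusted p = 0.0213), and the median was 0.35.

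Membrane proteins shared by the granule and the platelet surface, and the genes of granule biogenesis and secretion, had medians near 0 at 42 h. Of 16 membrane genes 13 were tested, with 3 higher, 1 lower and a median of 0.03. They were Gp1bb (1.70 ± 0.17, adjusted p = 9.28e-05), a subunit of the receptor for von Willebrand factor, the tetraspanin gene Cd9 (1.09 ± 0.17, adjusted p = 0.00170), the collagen receptor gene Gp6 (0.37 ± 0.06, adjusted p = 0.00207) and Gp9, another subunit of that receptor (-0.38 ± 0.11, adjusted p = 0.0423). Of 39 biogenesis and secretion genes 37 were tested, with 6 higher, 7 lower and a median of -0.06. Beside both counts, 10.3% of all genes tested were higher and 10.6% lower at 42 h, and 1.11% and 0.744% at 18 h. Among the secretion genes Stx2 (2.06 ± 0.08, adjusted p = 3.75e-07), Snap23 (0.72 ± 0.07, adjusted p = 9.28e-05) and Stxbp3 (0.70 ± 0.10, adjusted p = 9.42e-04) were higher, and the vesicle SNARE gene Vamp8 was lower (-1.21 ± 0.08, adjusted p = 5.32e-06). Vps33b, whose protein is needed with that of Vipas39 for alpha granule formation, was lower with Nbeal2, at 658 ± 57.2 in GATA1-labelled and 1071 ± 89.1 in vector-labelled cells (SD, n = 3 each; -0.69 ± 0.08, adjusted p = 2.06e-04), as was the Rab GTPase gene Rab38 (-0.59 ± 0.06, adjusted p = 1.64e-04). Vipas39 did not pass (-0.17, adjusted p = 0.369). At 18 h, Gp1bb (1.38 ± 0.17, adjusted p = 0.00352) and Snap23 (0.47 ± 0.07, adjusted p = 0.0104) passed in these lists, both higher, with list medians of 0.18 and 0.01.

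**Figure D4:**
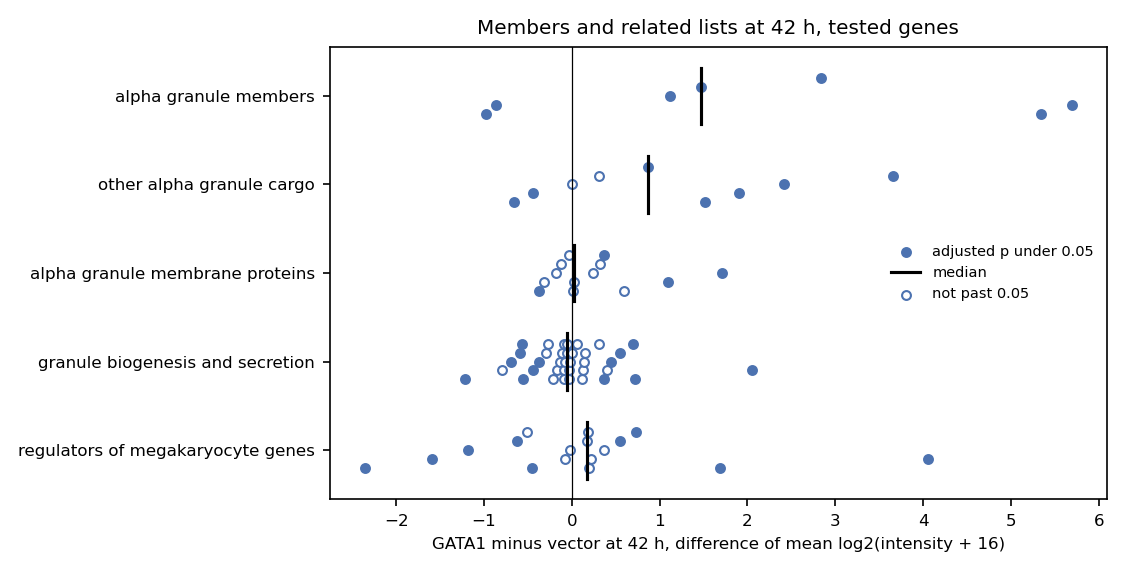
Difference of mean log2(intensity + 16), GATA1 minus vector at 42 h (horizontal axis), for the tested genes among the 10 alpha granule genes and in 4 related lists, 1 point a gene, filled where the adjusted p is under 0.05, with a bar at the list median. The median was 1.47 for the alpha granule genes, 0.87 for other cargo, 0.03 for membrane proteins, -0.06 for biogenesis and secretion and 0.17 for regulators.

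Of 20 regulators of megakaryocyte genes 17 were tested, with 4 higher, 5 lower and a median of 0.17 at 42 h, and 3 higher, 1 lower and a median of 0.08 at 18 h. Among all genes tested, 10.3% were higher and 10.6% lower at 42 h, and 1.11% and 0.744% at 18 h. Klf1, an erythroid zinc finger factor (4.05 ± 0.19, adjusted p = 1.02e-06), Lmo2, an adaptor of GATA factor complexes (1.68 ± 0.19, adjusted p = 2.24e-04) and Mafk, a small partner of NF-E2 (0.73 ± 0.10, adjusted p = 7.70e-04), were higher at 42 h, and the progenitor factor genes Gata2 (-2.36 ± 0.31, adjusted p = 5.41e-04), Lyl1 (-1.59 ± 0.08, adjusted p = 1.14e-06) and Meis1 (-1.18 ± 0.10, adjusted p = 4.12e-05) were lower. At 18 h Klf1 (2.92 ± 0.19, adjusted p = 2.65e-04), Lmo2 (1.35 ± 0.19, adjusted p = 0.00740) and Gfi1b (0.78 ± 0.10, adjusted p = 0.00352) were higher and Lyl1 was lower (-0.41 ± 0.08, adjusted p = 0.0337).

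Markers of several cell types moved with GATA1 beside the alpha granule genes. The counts below stand beside 10.3% of all genes tested higher and 10.6% lower at 42 h, and 1.11% and 0.744% at 18 h. At 42 h the summed intensity of 10 megakaryocyte markers was 19209 to 23129 in GATA1-labelled and 12720.1 to 14186 in vector-labelled cells, with 3 of the 9 tested genes higher and 2 lower, a median difference of 0.03 and Myl9 below the median on all arrays. This sum rested on Tubb1, the tubulin gene of platelets (6119 ± 1265 against 363 ± 63.3), and Gp1bb (5737 ± 1056 against 1731 ± 109; SD, n = 3 each). Without them the sum of the other 8 genes was the lower in GATA1-labelled cells, at 8835 to 10046 against 10666 to 12009. The sum of 12 erythroid markers was 47770.4 to 53839 in GATA1-labelled and 8739 to 10236 in vector-labelled cells, and the 11 that were tested were higher. Of these, Hba-x, Alas2 and Ermap exceeded the array median on GATA1 42 h arrays alone and Car1 on GATA1-labelled arrays alone, so these 4 were tested only through the group where they are high. The sum of 11 mast cell markers was 132 to 163 in GATA1-labelled and 2005 to 3375 in vector-labelled cells, with 2 of 3 tested genes lower and 8 below the median on all arrays. The sum in vector-labelled cells rested on these 2, Cpa3 (49.9 ± 15.9 against 2008 ± 541) and Kit (42.9 ± 2.18 against 631 ± 173; SD, n = 3 each). Hdc, also tested, did not pass (adjusted p = 0.482). At 18 h the GATA1-labelled and vector-labelled sums were 17631 to 18887 and 12814 to 14872 for the megakaryocyte markers, 13106 to 16126 and 7685 to 10021 for the erythroid markers, and 919.6 to 1022 and 1916 to 2494 for the mast cell markers. Without Tubb1 and Gp1bb the megakaryocyte sums at 18 h overlapped, at 11453 to 12764 in GATA1-labelled and 10439 to 12827 in vector-labelled cells. By test, 2 of 9 megakaryocyte and 4 of 11 erythroid markers were higher at 18 h, and none was lower. Of the 3 tested mast cell markers 1 was lower at 18 h and none was higher. Monocyte and macrophage markers (9 genes, 6 tested, with none of C1qa, Cd14 and Adgre1 above the median on any array) summed to 352 to 418 in GATA1-labelled and 491 to 716 in vector-labelled cells at 42 h, and none passed. This sum rested on Lyz2 (321 ± 42.3 against 541 ± 110; SD, n = 3 each; adjusted p = 0.0559). Of 7 neutrophil markers 6 lay below the median on all arrays and the only one tested was lower at 42 h, with sums of 36.7 to 41.8 in GATA1-labelled and 122 to 211 in vector-labelled cells. Of 9 fibroblast markers 7, Col1a1, Col1a2 and Col3a1 among them, lay below the median on all arrays, and the sums were 62.4 to 63.6 and 62.2 to 63.1. The part of these marker differences in the levels of the alpha granule genes was not tested.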

How the data were processed

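Intensities were deposited on a linear scale for 45101 probe sets on 12 arrays, made by the authors from total RNA with the Affymetrix protocol, per the labels. GCRMA and MAS5 are named, with no version, in the submitters' processing notes, which do not say which of them gave the deposited intensities. No further normalization was applied. Probe sets were named through a table of the platform annotation, which gives 1 symbol for 34945 probe sets and several for 932. Gene IDs of 34741 matched the RefSeq table of GRCm38.p6, and 0 symbols needed updating. That table served for names and gene order, since the deposited file names no build.

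A linear model on log2(intensity + 16) was fitted by lmFit and eBayes of limma 3.58.1 (R 4.3.3) over all 12 arrays in 4 groups, after a test on simulated data. Tests were two-sided. The number of arrays limits the precision. No array was a copy of another (at most 0.0266% identical values between any pair). Nothing says that the biological triplicates came from separate transductions, so p-values measure the spread between these samples.

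The replicate letters were checked for pairing by correlating deviations from the group means. Same-letter arrays of GATA1 and vector correlated at 0.66, 0.31 and 0.65 at 18 h and at 0.60, 0.25 and 0.33 at 42 h, all over 0.1, so the letters were taken to pair these groups. The main fit held no replicate block, so its p-values leave this pairing out. The block was fitted as an alternative only.

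The 10 members, the related lists, the markers and the motifs were chosen with earlier results of these data known. Named were all members, Gata1 and Gata2, up to 3 genes rising and 3 falling most per related list among those past the threshold, and the 3 genes most like each tested member by Pearson correlation. Names of clone, RIKEN or predicted gene form were left out of that correlation ranking. The gene neighbours, Vipas39 and the single marker genes were named after their values were seen. Alternatives were pseudocounts of 1 and 64, no filter or a filter at 6 arrays, the replicate letter as a block, fits of only the arrays compared, quantile normalization, all probe sets, the dimmer probe set of a gene and leaving out each array. Proteins were not analysed here.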

Additional observations from a re-analysis of the deposited data

Results flagged for a closer look

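The effect of GATA1 differed between 42 h and 18 h by the interaction test for 2 alpha granule genes, Vwf (log2 difference of the effects 4.31) and Thbs1 (2.38), whose values are given above. The genes named from the related lists were chosen for their differences at 42 h or 18 h on the same arrays, so how many of them pass here is not a result, beside 4.66% of all genes tested. Among these genes and the marker Tubb1, the effect was more positive at 42 h for Sparc (2.24), Vegfa (2.01), Pros1 (1.43), Stx2 (1.67), Tubb1 (2.13) and Gp6 (0.36). It was more negative at 42 h for Gata2 (-2.17), Lyl1 (-1.18), Vamp8 (-1.02), Meis1 (-0.91), Vps33b (-0.56), Rab38 (-0.54) and Srgn (-0.48). Sparc, Lyl1 and Tubb1 (1.88 ± 0.19, adjusted p = 0.00178) had passed at 18 h with the same sign, whereas Srgn stood at -0.45 at 42 h and 0.03 at 18 h.

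A probe set annotated to both Pald1 and Thbs1 was left out of the comparisons because it names no single gene. It read 17526, 14139.7 and 11265 in GATA1-labelled cells against 387, 459.9 and 441 in vector-labelled cells at 42 h, with means of 14310.1 and 429. At 18 h it read 12900.3, 6048 and 6409 in GATA1-labelled cells against 1320.1, 603 and 1462 in vector-labelled cells, with means of 8452 and 1129. No arrays overlapped between GATA1 and vector at either time, and which of the genes it measures cannot be told apart here. Groups of 3 arrays were too small for a test of single outlying arrays.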

How the results depend on the processing

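No difference of an alpha granule gene changed its sign under an alternative while past the threshold. The count of members past the threshold was 1 at 18 h and moved to 2 with a pseudocount of 1 and with the replicate block, and to 0 when the fit held just the compared arrays or left out the 4 arrays lettered A (chosen after seeing the data). At 42 h it was 7, moved to 4 with the dimmer probe set, was 6 with all probe sets fitted, without the filter and in the fit of the 6 arrays compared (Mmrn1 lost in each) and without the arrays lettered A (Nbeal2 lost), and was 6 to 7 without single arrays. For the interaction it was 2 and moved to 1 with a pseudocount of 64, without the filter on low values, with all probe sets fitted, with the dimmer probe set and without the arrays lettered A, and was 1 to 2 without single arrays. Between 42 h and 18 h in GATA1-labelled cells it was 3 and moved to 5 with the replicate block (adding Ppbp, adjusted p = 0.0312, and Mmrn1, 0.0259), to 1 with only the arrays compared, and was 1 to 5 without single arrays. In vector-labelled cells it was 0 throughout. Some 18 h differences that did not pass were over 1.5 times smaller without replicate A of GATA1 18 h: Pf4 (0.26), Mmrn1 (-0.22) and Nbeal2 (-0.13). Pf4 was 0.27 without replicate B and Nbeal2 -0.16 without replicate C of vector 18 h. Quantile normalization and a filter at 6 arrays moved no call. The replicate block changed no other call of a member. Same-letter correlation between the times within GATA1-labelled cells was 0.57, 0.05 and 0.61 for replicates A, B and C. Because replicate B lay under 0.1, the letters were not taken to pair these times, though A and C correlated.

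Over all genes, 199 passed at 18 h, against 119 without the filter, 54 with only the arrays compared, 358 with the replicate block, 114 with the dimmer probe set, 34 without the arrays lettered A and 101 to 200 without single arrays. At 42 h 2251 passed, against 1756 without the filter, 1680 with only the arrays compared and 3053 with the replicate block. The 42 h total was 1560 with the dimmer probe set, 1749 without the arrays lettered A and 1689 to 2218 without single arrays. For the interaction 501 passed, against 846 with the block, 319 without the filter, 315 with the dimmer probe set, 259 without the arrays lettered A and 323 to 536 without single arrays. In vector-labelled cells over time 2 passed, against 41 with the block. Probe sets near the array median of 8.05 to 8.29 limit what can be said of F5, Selp and Timp3 and the size of the Vwf difference. The causes of these shifts were not tested.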
